A study of Mus musculus with 16 samples.

Results

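The genes described here are regulators of mitochondrial and lipid metabolism built around the PGC-1 coactivators, the PPAR receptors and the oestrogen-related receptors (ERR), chosen by symbol from the count table. There are 10 of them among 35682 genes in the table: Ppargc1a, Ppargc1b, Ppara, Ppard, Pparg, Esrra, Esrrb, Esrrg, Rxra and Nrip1. RNA came from adult ventricular myocytes of 16 mice, 8 of the B3AR-Tg line, whose name points to the beta-3 adrenergic receptor, and 8 wild-type animals (WT). All 16 hearts, controls included, were collected 9 weeks after transverse aortic constriction (TAC), a narrowing of the aorta that makes the left ventricle pump against higher pressure. No animal without TAC was analysed here, so every comparison is between genotypes under load. The promoter and species of the transgene, and the age and sex of the mice, are not given in the sources used here.

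PGC-1 proteins do not bind DNA. They dock on nuclear receptors and other transcription factors and bring in the enzymes that open chromatin and start transcription. In the heart, PPAR-alpha works as a pair with a retinoid X receptor to switch on genes for fatty acid uptake and oxidation, and the ERRs bind genes of the citric acid cycle and the respiratory chain, where PGC-1 proteins are their main activators. NRIP1, also called RIP140, docks on the same receptors and mostly represses them. Adrenergic signalling through cyclic AMP and CREB is a classical inducer of Ppargc1a in several tissues.

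The promoter windows of Ppargc1a and of the upstream start of Rxra are shown as examples from genes that were higher in B3AR-Tg. Each window runs from 250 bases before to 50 bases after a RefSeq transcription start on GRCm38.p6, and capitals mark the short CREB motif TGACG and the GC box GGGCGG, on either strand. The Ppargc1a window is on the minus strand, chr5:51567676-51567975, and the Rxra window on the plus strand, chr2:27676951-27677250.

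Ppargc1a: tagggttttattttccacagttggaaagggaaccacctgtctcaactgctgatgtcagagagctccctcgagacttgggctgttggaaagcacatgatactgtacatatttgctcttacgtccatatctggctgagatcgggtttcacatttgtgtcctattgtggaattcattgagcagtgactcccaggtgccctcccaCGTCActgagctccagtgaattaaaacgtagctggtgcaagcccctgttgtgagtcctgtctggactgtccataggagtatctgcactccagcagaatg

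Rxra: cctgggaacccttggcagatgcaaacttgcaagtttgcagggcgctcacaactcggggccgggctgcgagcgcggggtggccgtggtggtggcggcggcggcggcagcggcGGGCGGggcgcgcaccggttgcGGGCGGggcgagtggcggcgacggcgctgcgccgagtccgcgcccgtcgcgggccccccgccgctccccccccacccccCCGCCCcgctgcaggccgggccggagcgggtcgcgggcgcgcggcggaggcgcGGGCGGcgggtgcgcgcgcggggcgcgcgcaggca

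The Ppargc1a window held 1 short CREB motif, which reads CGTCA on the strand shown, at bases -49 to -45 from the start. No GC box was found in it, and its GC content was 48.7%. The Rxra window had no short CREB motif, 4 GC boxes and a GC content of 83%, against a median of 52.7% over all 32851 windows of the table. The other Rxra window, at a downstream start, had no GC box, no short CREB motif and a GC content of 54.3%. The short CREB motif was also found in windows of Ppara, Ppard and Esrrb, none of which was called between genotypes. That motif is in 20.8% of all windows of the table and a GC box in 35.7%. The full CREB site TGACGTCA (1.79% of windows) and the ERR element TNAAGGTCA (1.28%) were found in none of the 17 windows listed for the 9 genes searched. A match is a run of letters and does not show that a factor binds.

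Library totals ranged from 5985335 to 14365864 counts. Mitochondrially encoded genes took 18.8% to 27.5% of the counts of a library. Myocyte markers far exceeded those of other cell types in every library. The 10 myocyte markers summed to between 75099 and 117744 CPM (the count scaled by library size with TMM factors), and 1 of 10 was higher in B3AR-Tg (Ryr2, named after its values were seen). Other cell types left small signals, and among their markers only those of fibroblasts and endothelium held genes called between genotypes. The summed fibroblast markers spanned 45.9 to 189.8 CPM in WT and 12.01 to 65.1 CPM in B3AR-Tg, with 5 of 7 tested markers lower. Endothelial markers spanned 126.7 to 172.9 CPM in WT and 57.7 to 222.9 CPM in B3AR-Tg, with 2 of 8 lower. Over all genes tested, 2.88% were called lower and 2.03% higher. Mural markers (edgeR, 0 of 6 tested called, 2 at an unadjusted p under 0.05) spanned 87.7 to 162.6 CPM in WT and 47.7 to 143.0 CPM in B3AR-Tg. Leukocyte markers (0 of 2 called, 1 unadjusted) spanned 4.27 to 16.4 CPM in WT and 0.795 to 6.85 CPM in B3AR-Tg. The median log2 fold change of those 2 was -0.81. An unadjusted p under 0.05 (edgeR) was found for 2117 of all 10945 genes tested. Adipocyte markers, among them Adipoq and Plin1, summed to at most 1.177 CPM in any library, Retn held no count in any, and the filter on low counts removed all 6. In bulk samples, fewer cells of a type and less RNA per cell cannot be told apart.

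All 10 regulators passed the filter on low counts. At an adjusted p under 0.05 (edgeR quasi-likelihood test, Benjamini-Hochberg over all genes tested), 3 of the 10 were higher in B3AR-Tg, namely both coactivators Ppargc1a and Ppargc1b and the partner receptor Rxra, and 0 were lower, with 6 at an unadjusted p under 0.05. Over all 10945 genes tested, 2.03% were called higher, 2.88% lower and 4.91% in either direction. An unadjusted p under 0.05 (edgeR) was found for 2117 of those genes. The log2 fold change was above 0 for 9 of the 10 and below 0 for Pparg alone, beside 51.1% above 0 over all genes tested. The median was 0.30, against 0.0060 over all genes tested. With libraries scaled by their totals alone, the median over all genes was 0.084, and the share of higher genes among all calls rose from 41.3% to 67.7%. The same 3 regulators passed under that scaling.

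**Figure D1:**
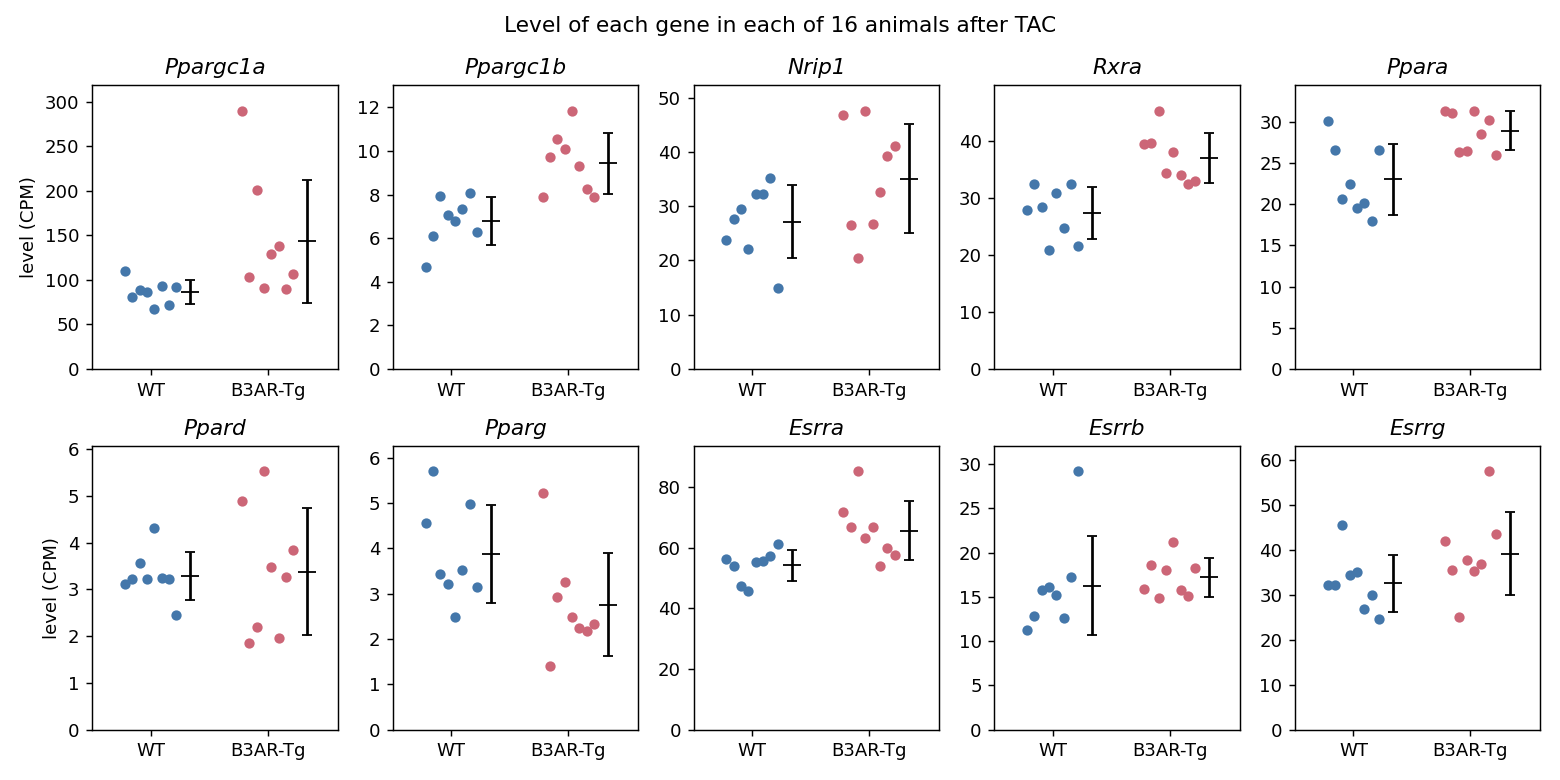
Level of each regulator (CPM, vertical axis from 0) in each WT animal (blue) and each B3AR-Tg animal (red), with the mean and SD in black, n = 8 per genotype. Ppargc1a spreads from 89.8 to 290.1 CPM in B3AR-Tg, while Rxra and Ppargc1b shift with little overlap.

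Ppargc1a (ENSMUSG00000029167, chromosome 5) encodes PGC-1 alpha, the coactivator that raises mitochondrial content and oxidative capacity in muscle and heart. It was at 67.5 CPM in the lowest WT animal, 87.1 at the median and 110.2 in the highest. In B3AR-Tg the lowest animal was at 89.8 CPM, the median was 117.5 and the highest was 290.1. The groups overlapped, since B3AR-Tg replicates 2, 4, 7 and 8 were at 103.1, 91.1, 89.8 and 106.3 CPM, within the WT range. Replicates 1 and 3 of B3AR-Tg stood highest, at 290.1 and 200.5 CPM. Mean levels were 86.0 ± 13.4 (SD, n = 8) and 143.5 ± 69.3 CPM, which gives 1.67-fold, or 0.74 ± 0.20 as log2 fold change and standard error (edgeR adjusted p = 0.0384). None of the 8 B3AR-Tg animals lay under the WT median. Without B3AR-Tg replicate 1 the log2 fold change was 0.51 (edgeR adjusted p = 0.0555).

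Ppargc1b (ENSMUSG00000033871, chromosome 18) encodes PGC-1 beta, the second coactivator of the family, with overlapping targets. Its level was far lower, from 4.68 CPM in the lowest WT animal through a median of 6.93 to 8.05 in the highest. The B3AR-Tg animals spanned 7.87 to 11.8 CPM with a median of 9.50. Only the edges of the groups overlapped. Means were 6.786 ± 1.101 and 9.436 ± 1.401 CPM, or 1.39-fold (log2 0.47, standard error 0.13, edgeR adjusted p = 0.0356). Counts behind these levels ran from 39 to 129 per library, so counting error is larger here than for Ppargc1a, which held 488 to 4333.

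Nrip1 (ENSMUSG00000048490, chromosome 16), the corepressor, did not pass the test. WT animals spanned 14.8 to 35.1 CPM with a median of 28.5, and B3AR-Tg animals 20.5 to 47.6 CPM with a median of 35.9. The lowest value belonged to WT replicate 8 and the groups overlapped widely. The estimate was 0.37 in log2 units (standard error 0.18, 95% interval 0.0058 to 0.74, edgeR adjusted p = 0.252).

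Rxra (ENSMUSG00000015846, chromosome 2) encodes the retinoid X receptor with which PPARs pair on DNA. In WT it was at 20.8 CPM at the lowest, 28.1 at the median and 32.5 at the highest, and in B3AR-Tg at 32.5, 36.2 and 45.3 CPM. The lowest B3AR-Tg animal (32.46 CPM) lay just under the highest WT animal (32.49 CPM), and no other pair crossed. Means were 27.4 ± 4.61 and 37.0 ± 4.39 CPM, or 1.35-fold (log2 0.44, standard error 0.10, edgeR adjusted p = 0.0202). This was the smallest adjusted p among the 10.

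Among the PPARs, none passed. Ppara (ENSMUSG00000022383, chromosome 15), the main PPAR of cardiac fatty acid use, was at 18.003 to 30.1 CPM in WT (median 21.5) and 25.9 to 31.3 CPM in B3AR-Tg (median 29.4). No B3AR-Tg animal fell under the WT median, but WT replicates 1, 2 and 8 lay within the B3AR-Tg range. The estimate was 0.33 in log2 units (standard error 0.10, 95% interval 0.11 to 0.54, edgeR adjusted p = 0.0709). DESeq2 put it past the threshold (adjusted p = 0.0406), as did edgeR without WT replicate 1 (adjusted p = 0.0311). It did not pass in the other 15 fits that left out 1 animal or in 6 of 7 other settings, whose adjusted p reached 0.464.

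Ppard (ENSMUSG00000002250, chromosome 17), the widely expressed PPAR, held 20 to 73 counts per library. It spanned 2.46 to 4.31 CPM in WT (median 3.22) and 1.85 to 5.52 CPM in B3AR-Tg (median 3.38). The transgenic animals covered the whole WT range on both sides. The log2 fold change was 0.031 with a 95% interval of -0.43 to 0.49 (edgeR adjusted p = 0.961), and its sign turned when WT replicate 8 (-0.022), B3AR-Tg replicate 1 (-0.071) or B3AR-Tg replicate 4 (-0.082) was left out.

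Pparg (ENSMUSG00000000440, chromosome 6), best known as the regulator of fat cells, was the one gene with a lower estimate in B3AR-Tg. WT animals were at 2.48 to 5.69 CPM (median 3.49) and B3AR-Tg animals at 1.41 to 5.22 CPM (median 2.40). B3AR-Tg replicate 1, at 5.22 CPM, stood above the rest of its group, which reached 3.25 at most. The log2 fold change was -0.49 with a 95% interval of -0.98 to 0.00035 (edgeR adjusted p = 0.258). Without B3AR-Tg replicate 1 it was -0.70 (edgeR adjusted p = 0.0656). Endothelial and fibroblast markers were lower in the same direction, and their part in the Pparg value was not tested. With the level of those markers in the model, the Pparg estimate was 0.028 (standard error 0.36, edgeR adjusted p = 0.985). Those markers include Fabp4, which is also on the list of PPAR targets, so that level is not independent of PPAR targets. Adipocyte markers summed to 0.170 to 1.177 CPM in WT (mean 0.576) and 0 to 0.487 CPM in B3AR-Tg (mean 0.081). All 6 were removed by the filter on low counts, and their part in the Pparg value was not tested either.

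The ERRs did not pass the test either. Esrra (ENSMUSG00000024955, chromosome 19), which PGC-1 alpha both induces and coactivates, was at 45.8 to 61.4 CPM in WT (median 55.6) and 54.0 to 85.2 CPM in B3AR-Tg (median 65.0). The highest value belonged to B3AR-Tg replicate 3, which also had the second-highest Ppargc1a. Over the animals of a genotype, Pearson r of Esrra with Ppargc1a was -0.0010 in WT and 0.59 in B3AR-Tg. Neither passed (n = 8 each, exact permutation p = 0.998 and 0.125, adjusted 0.998 and 0.390). Without the 2 animals farthest from the Ppargc1a median, r was -0.094 in WT and -0.26 in B3AR-Tg. The estimate was 0.28 in log2 units (standard error 0.091, 95% interval 0.089 to 0.47, edgeR adjusted p = 0.0821). Esrra overlaps 1 other gene of the table, Trmt112, in the GENCODE M21 annotation, and how reads shared by both were assigned is not stated.

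Esrrg (ENSMUSG00000026610, chromosome 1), which takes part in the heart's switch to oxidative metabolism after birth, was at 24.6 to 45.6 CPM in WT (median 32.2) and 25.2 to 57.5 CPM in B3AR-Tg (median 37.4). WT replicate 3 and B3AR-Tg replicate 7 were the highest of their groups, and the ranges overlapped almost fully. Its log2 fold change was 0.27 with a 95% interval of -0.018 to 0.55 (edgeR adjusted p = 0.294).

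Esrrb (ENSMUSG00000021255, chromosome 12) is better known from stem cells and the placenta. It was at 11.3 to 29.2 CPM in WT (median 15.5) and 14.9 to 21.2 CPM in B3AR-Tg (median 16.9). WT replicate 8 stood apart at 29.2 CPM, with the next WT animal at 17.3. The log2 fold change was 0.076 with a 95% interval of -0.24 to 0.40 (edgeR adjusted p = 0.834), and 0.25 without WT replicate 8 (edgeR adjusted p = 0.232).

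**Figure D2:**
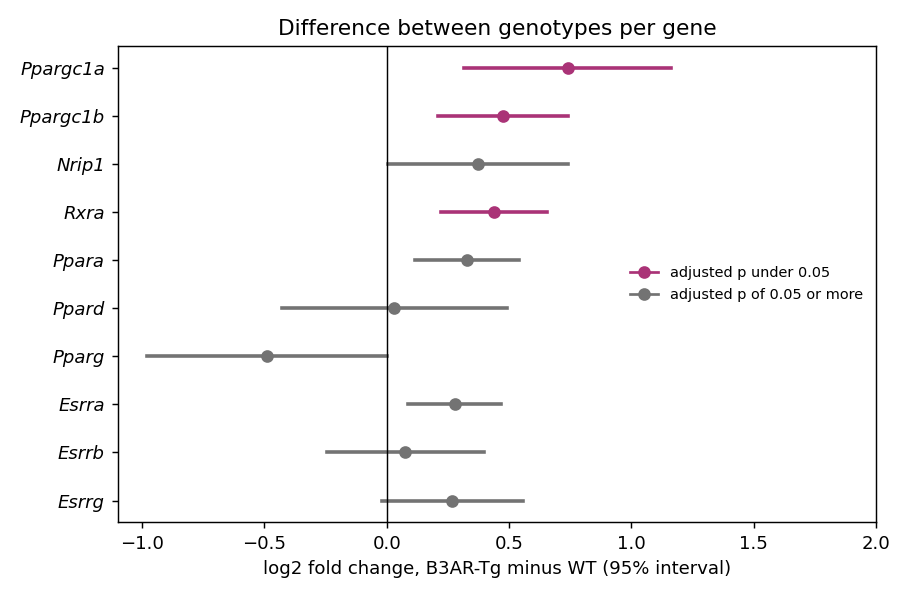
Log2 fold change of each regulator, B3AR-Tg minus WT, with its 95% interval from the edgeR fit, n = 8 per genotype. Ppargc1a (0.74), Ppargc1b (0.47) and Rxra (0.44) passed at an adjusted p under 0.05, and the interval of Ppargc1a was the widest of the 3.

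The 3 calls differed in how often they passed when 1 animal was left out. Rxra passed in all 16 fits that left out 1 animal (edgeR adjusted p from 0.0165 to 0.0444). Ppargc1a passed in 6 of the 16 and Ppargc1b in 8, with log2 fold changes of 0.51 to 0.81 and 0.41 to 0.51. The Ppargc1a call was lost without WT replicates 2, 4, 5, 6, 7 or 8 (edgeR adjusted p = 0.0666, 0.0721, 0.0648, 0.0513, 0.0627 and 0.0583) and without B3AR-Tg replicates 1, 3, 5 or 6 (0.0555, 0.0634, 0.0600 and 0.0526). Without WT replicate 4 its log2 fold change was 0.739, as with all animals, while calls over all genes fell from 537 to 272. The Ppargc1a estimate moved most without B3AR-Tg replicate 1 (0.51). The Ppargc1b call was lost without WT replicates 1, 2, 4 or 8 (edgeR adjusted p = 0.0645, 0.0657, 0.0612 and 0.0659) and without B3AR-Tg replicates 2, 3, 4 or 5 (0.0619, 0.0514, 0.0535 and 0.0850). The mean level of 15 fibroblast and endothelial markers correlated with genotype across the 16 animals (Pearson r = -0.77, a description). With it in the model 0 of the 10 regulators passed (edgeR, 2 at an unadjusted p under 0.05). Over all 10945 genes tested, 3 were called in that fit, against 537 without the covariate. Standard errors grew, from 0.20 to 0.34 for Ppargc1a, 0.13 to 0.20 for Ppargc1b and 0.10 to 0.16 for Rxra. Estimates in that fit were 0.54 for Ppargc1a, 0.31 for Ppargc1b and 0.34 for Rxra (edgeR adjusted p = 0.572, 0.576 and 0.453). The part of the marker level in the 3 calls was not tested.

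**Figure D3:**
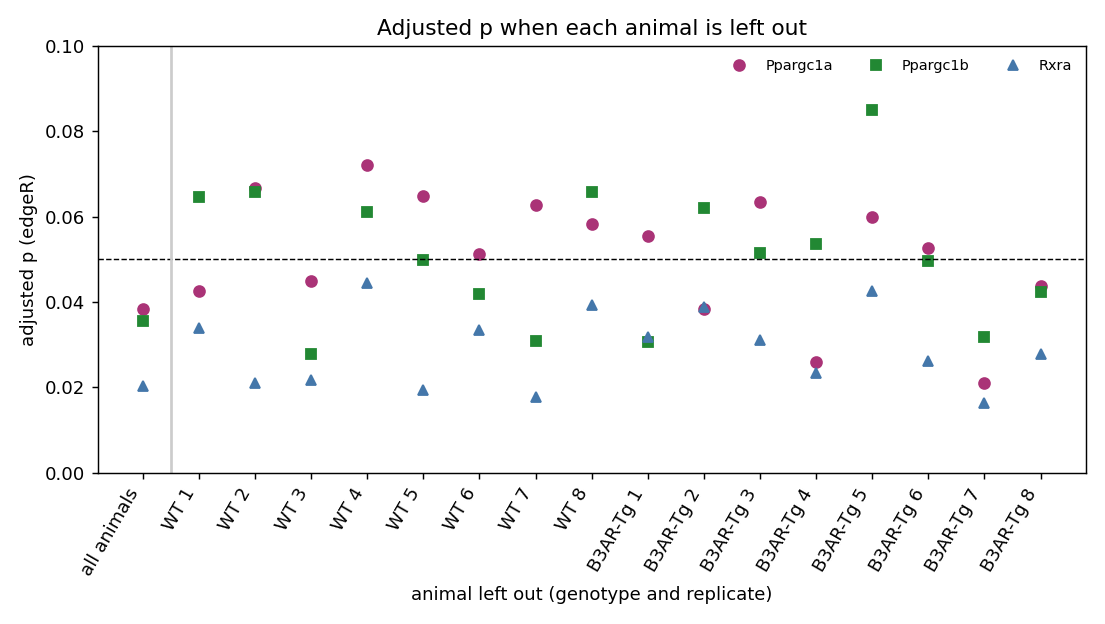
Adjusted p (edgeR, vertical axis) of Ppargc1a, Ppargc1b and Rxra with all animals and with each animal left out in turn (horizontal axis); the dashed line is the threshold of 0.05. Rxra stays under the line in all 16 fits, Ppargc1a in 6 and Ppargc1b in 8.

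Levels of different genes were compared per length, as CPM per kilobase of merged exons. In WT the order of means was Ppargc1a (13.1 ± 2.03), Esrra (12.4 ± 1.18), Ppara (6.00 ± 1.11), Esrrg (5.25 ± 1.02), Rxra (5.01 ± 0.844), Esrrb (2.69 ± 0.925), Nrip1 (2.37 ± 0.580), Ppargc1b (1.70 ± 0.276), Pparg (1.31 ± 0.366) and Ppard (0.438 ± 0.0687), each as mean ± SD over 8 animals. Ppargc1a and Esrra were not separated, since Ppargc1a was the higher of the 2 in 4 of 8 WT animals. By the longest coding transcript in place of merged exons, Esrra was first (24.2) and Ppargc1a second (13.3). A step followed, since Esrra was above Ppara in all 8 animals of each genotype with no overlap. Each neighbouring pair from Ppara down to Pparg overlapped in WT. Pparg was above Ppard in all 8 WT animals with no overlap between their ranges.

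In B3AR-Tg the order was close to that in WT. Ppargc1a was at 21.8 ± 10.5 CPM per kilobase and above Esrra (14.97 ± 2.22) in 6 of 8 animals. By the longest coding transcript this order turned, with Esrra at 29.3 and Ppargc1a at 22.2. Rxra (6.78 ± 0.803) moved ahead of Esrrg (6.32 ± 1.49), and Nrip1 (3.06 ± 0.879) ahead of Esrrb (2.85 ± 0.361), in both cases with overlapping ranges. Ppargc1b, at 2.36 ± 0.351, stayed near the low end, so per length the alpha coactivator was the more abundant of the pair in every animal of both genotypes.

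**Figure D4:**
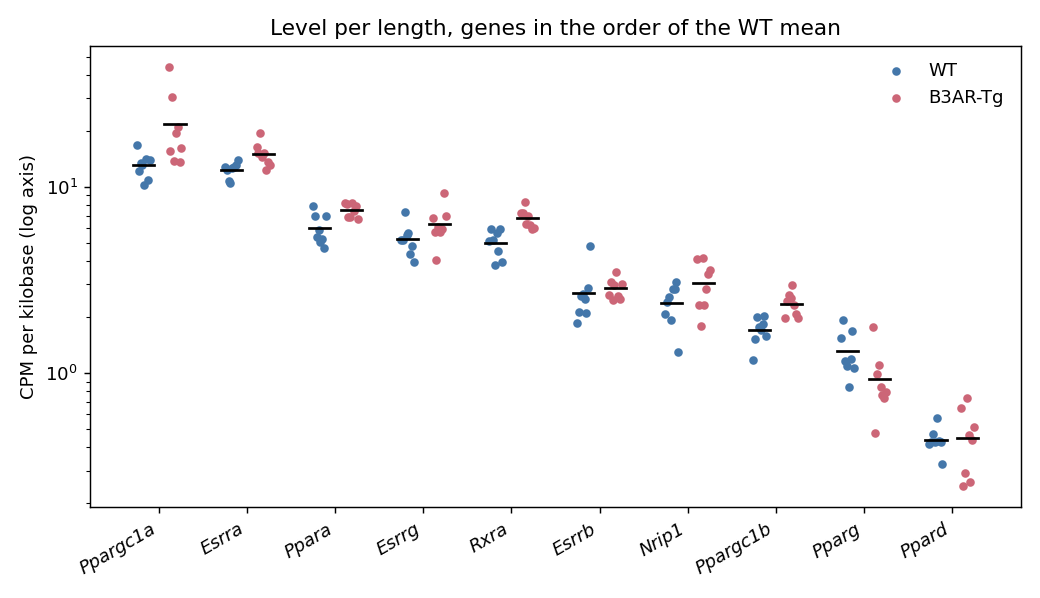
Level per length (CPM per kilobase of merged exons, log axis) of the 10 regulators in each WT (blue) and B3AR-Tg (red) animal, with group means in black. Ppargc1a and Esrra lie highest, at 13.1 and 12.4 in WT, and Ppard lowest, at 0.438.

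Whether pairs of regulators differed unequally was tested on 3 ratios within each library, on which scaling bears only through the 0.1 CPM added to each level. The log2 ratio of Ppargc1a to Ppargc1b was 3.65 ± 0.422 (SD, n = 8) for WT and 3.81 ± 0.649 for B3AR-Tg, 0.16 apart (two-sided exact permutation over 12870 splits, p = 0.592, adjusted over the 3 ratios 0.888). Without B3AR-Tg replicate 1 that difference turned to -0.037, and without WT replicate 1 it was 0.28. Ppargc1a to Nrip1, coactivator to corepressor, was 1.69 ± 0.549 and 1.96 ± 0.783 (difference 0.28, exact permutation p = 0.426, adjusted 0.888). Esrrg to Esrra was -0.75 ± 0.388 and -0.76 ± 0.494 (difference -0.016, exact permutation p = 0.945, adjusted 0.945). Leaving out 1 animal moved it from -0.12 (B3AR-Tg replicate 7) to 0.13 (B3AR-Tg replicate 3), and its sign also turned without WT replicate 3 or 4 or B3AR-Tg replicate 2 or 5. No ratio passed the test, and the smallest p it can give is 0.000155. The SD of 0.388 to 0.783 log2 units within a genotype limits what these tests could detect.

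From animal to animal, no relation of another regulator with Ppargc1a passed the test. Of 18 relations tested within a genotype, 9 regulators in each, 0 passed after adjustment over the 18, and 0 had an unadjusted p under 0.05. The largest in WT was with Ppara (n = 8, Pearson r = 0.70, exact permutation p = 0.0560, adjusted 0.390; Spearman rho = 0.64, exact p = 0.0962, adjusted 0.673). Leaving out the 2 animals farthest from the Ppargc1a median gave r = 0.37. In B3AR-Tg the largest was with Pparg (n = 8, r = 0.70, exact permutation p = 0.0566, adjusted 0.390; rho = 0.52, exact p = 0.197, adjusted 0.673). That relation rested on 2 animals, since r without them was -0.084. Rxra had r = -0.48 with Ppargc1a in WT and 0.65 in B3AR-Tg (n = 8 each, exact permutation p = 0.228 and 0.0774, adjusted 0.514 and 0.390; rho = -0.60 and 0.55, exact p = 0.132 and 0.171, both adjusted 0.673). Without the 2 farthest animals r was -0.72 in WT and 0.28 in B3AR-Tg, so the B3AR-Tg value rested largely on those 2.

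Genes outside the list whose levels tracked Ppargc1a most closely, after subtracting each genotype's mean (Pearson r over 16 animals, a description), were Znfx1 (0.83), the chaperone gene Hsp90aa1 (0.83) and Ing3 (0.82), a subunit of a histone acetyltransferase complex. B3AR-Tg replicate 1, with the highest Ppargc1a, was also highest for Hsp90aa1, which reached 576.8 CPM there and 175.3 to 380.2 CPM elsewhere. It was highest for Znfx1 as well, which reached 42.9 CPM there and 16.5 to 33.6 elsewhere. Ing3 was also highest there, at 7.83 CPM. Within B3AR-Tg r was 0.89, 0.88 and 0.90 for Znfx1, Hsp90aa1 and Ing3, and within WT 0.47, 0.58 and 0.52. These genes were picked by r over both genotypes, and Ppargc1a spread more in B3AR-Tg (SD 69.3 against 13.4 CPM). That choice favours a high r in B3AR-Tg, so these values cannot show that the likeness differed between genotypes. None of the 3 was called between genotypes (edgeR adjusted p = 0.416, 1.00 and 0.413). Esrrg had a different set of companions: the nuclear import receptor gene Kpna3 (0.92), Kctd9 (0.91) and Polr2a (0.90), which encodes the largest subunit of RNA polymerase II. Those points share libraries and depth with the regulators.

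Upstream of PGC-1 alpha, 5 of 34 tested genes (14.7%) were higher in B3AR-Tg and 0 lower, beside 2.03% and 2.88% over all genes. The median log2 fold change was 0.14, against 0.0060. An unadjusted p under 0.05 (edgeR) was found for 10 of the 34, beside 2117 of the 10945 genes tested. The thyroid hormone receptor genes Thrb (17.1 ± 3.05 to 23.6 ± 3.79 CPM, log2 fold change 0.47) and Thra (24.7 ± 3.99 to 31.4 ± 2.11 CPM, 0.35) both rose (edgeR adjusted p = 0.0310 and 0.0360). Flcn, which restrains energy-stress signalling with its partner Fnip1, rose by 0.51 (edgeR adjusted p = 0.0336). Nr1d2, a repressor receptor of the circadian clock, rose from 109.6 ± 17.3 to 142.1 ± 18.6 CPM (log2 fold change 0.38, edgeR adjusted p = 0.0376). The fifth, Mef2d, a muscle transcription factor, was named after its values were seen (0.41, edgeR adjusted p = 0.0378).

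Those 5 calls lay close to the threshold. Leaving out 1 animal gave between 0 and 6 calls in the upstream list. The count fell to 0 without WT replicate 4 or B3AR-Tg replicate 5, to 1 without B3AR-Tg replicate 2 or 8, to 2 without WT replicate 1, 2, 5, 6 or 8, and to 3 without WT replicate 7 or B3AR-Tg replicate 4. With replicate number as a block the count was 1. With the level of fibroblast and endothelial markers in the model it was 0, where 3 of all 10945 genes tested were called. The part of that level in the 5 calls was not tested.

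Partners, coactivators and corepressors outside the 10 showed no call, 0 of 18 (edgeR, and 0 with DESeq2). Over all genes tested, 4.91% were called in either direction (edgeR), so 0 of 18 does not set this list apart. The median log2 fold change of the list was 0.14. In the edgeR fit 4 of the 18 had an unadjusted p under 0.05, beside 2117 of the 10945 genes tested. The other retinoid X receptors did not pass. Rxrb was at 12.3 ± 1.54 CPM in WT and 15.3 ± 2.96 in B3AR-Tg (log2 fold change 0.32, 95% interval 0.068 to 0.57, edgeR adjusted p = 0.139). Rxrg was at 42.7 ± 6.49 and 45.0 ± 7.64 CPM (0.078, 95% interval -0.15 to 0.30, edgeR adjusted p = 0.743). Perm1, a muscle partner of PGC-1 and ERR named after its values were seen, was at 245.1 ± 18.9 and 256.9 ± 44.0 CPM (0.068, edgeR adjusted p = 0.750).

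Few target genes of the receptors were called, and their number moved with the scaling and the tool. Of 35 tested PPAR targets of lipid use, 1 was higher (2.86%, beside 2.03% over all genes) and 0 lower. Estimates were above 0 for 28 of the 35, beside 51.1% of all genes tested, with a median log2 fold change of 0.17. The gene called was Slc27a1, a fatty acid transporter, at 58.6 ± 7.67 CPM in WT and 85.4 ± 15.4 in B3AR-Tg (log2 fold change 0.54, edgeR adjusted p = 0.00871). Classical PPAR targets did not pass. Cpt1b, which admits fatty acids to mitochondria, was at 573.3 ± 50.7 and 632.9 ± 73.8 CPM (0.14, 95% interval -0.029 to 0.31, edgeR adjusted p = 0.363). Acadm, an enzyme of fatty acid oxidation, had a log2 fold change of 0.093 (edgeR adjusted p = 0.649). Pdk4, which encodes a kinase that turns glucose oxidation down, spread widely in B3AR-Tg (478.8 ± 116.9 against 621.5 ± 316.8 CPM, 0.38, edgeR adjusted p = 0.409). So did the uncoupling protein gene Ucp3 (10.8 ± 3.42 against 17.4 ± 14.2 CPM, 0.69, edgeR adjusted p = 0.304). The count of lipid targets was 2 without WT replicate 5, WT replicate 7 or B3AR-Tg replicate 1, 3 without WT replicate 6, and 6 without B3AR-Tg replicate 7. It was 4 with libraries scaled by their totals alone and 3 with DESeq2, where 346 and 318 of all genes tested were called higher. With the other-cell covariate it was 0 (edgeR), where 3 of all genes tested were called.

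Of 39 tested mitochondrial targets of ERR and PGC-1, 1 was higher (2.56%, beside 2.03% over all genes) and 0 lower. Estimates were above 0 for 37 of the 39, beside 51.1% of all genes tested, with a median log2 fold change of 0.14. The gene called was Sdha, the catalytic subunit of succinate dehydrogenase, at 591.5 ± 73.2 CPM in WT and 764.7 ± 98.1 in B3AR-Tg (0.37, edgeR adjusted p = 0.0249). The count was 0 without WT replicates 1, 4 or 8 or B3AR-Tg replicate 5, 2 without B3AR-Tg replicate 4, and 4 without B3AR-Tg replicate 7. It was 4 with libraries scaled by their totals alone, 3 with DESeq2, and 0 with replicate number as a block or with the other-cell covariate. The block and the covariate fits called 230 and 3 of all genes tested. The direction of this list turned with the other-cell covariate: 11 of 39 estimates were then above 0, with a median of -0.052. Lipid targets had a median of 0.050 there, with 21 of 35 above 0. Fabp4 belongs both to the lipid targets and to the endothelial markers behind that covariate. The part of the marker level in these lists was not tested.

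Of 12 tested factors that activate respiratory genes or copy and transcribe the mitochondrial genome, 1 passed. Polg2, the accessory subunit of the mitochondrial DNA polymerase, was higher (2.42 ± 0.460 to 3.82 ± 0.578 CPM, log2 fold change 0.66, edgeR adjusted p = 0.0239). That 1 call is 8.33% of the list, beside 2.03% of all genes called higher. It was lost without B3AR-Tg replicate 5, with no low-count filter, with replicate number as a block and with the other-cell covariate. The covariate fit called 3 of all genes tested. The median of the list was 0.019. Tfam, which packages that genome, was at 40.7 ± 6.54 and 37.9 ± 5.42 CPM (-0.10, 95% interval -0.32 to 0.12, edgeR adjusted p = 0.637). Nrf1 (0.016, 95% interval -0.40 to 0.43, edgeR adjusted p = 0.978) and Gabpa (0.022, 95% interval -0.12 to 0.16, edgeR adjusted p = 0.898), the nuclear respiratory factors that PGC-1 alpha coactivates, did not pass.

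Among 16 tested nuclear receptors outside the list, 3 were higher (18.8%, beside 2.03% over all genes) and 0 lower (2.88% over all genes), with a median log2 fold change of 0.20. All 3 calls were lost with the other-cell covariate, a fit in which 3 of all genes tested were called. The part of the marker level in the nuclear receptor calls was not tested. The mineralocorticoid receptor gene Nr3c2 rose from 19.2 ± 3.11 to 34.9 ± 10.1 CPM (0.86, edgeR adjusted p = 0.00590). Nr4a1 (0.93) and Nr4a3 (0.95), receptors that cyclic AMP induces quickly in many tissues, rose as well (edgeR adjusted p = 0.0100 and 0.0159), with 7 of 8 B3AR-Tg animals over the WT median for each. These 3 calls were larger in log2 fold change than those of Ppargc1a, Ppargc1b and Rxra.

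**Figure D5:**
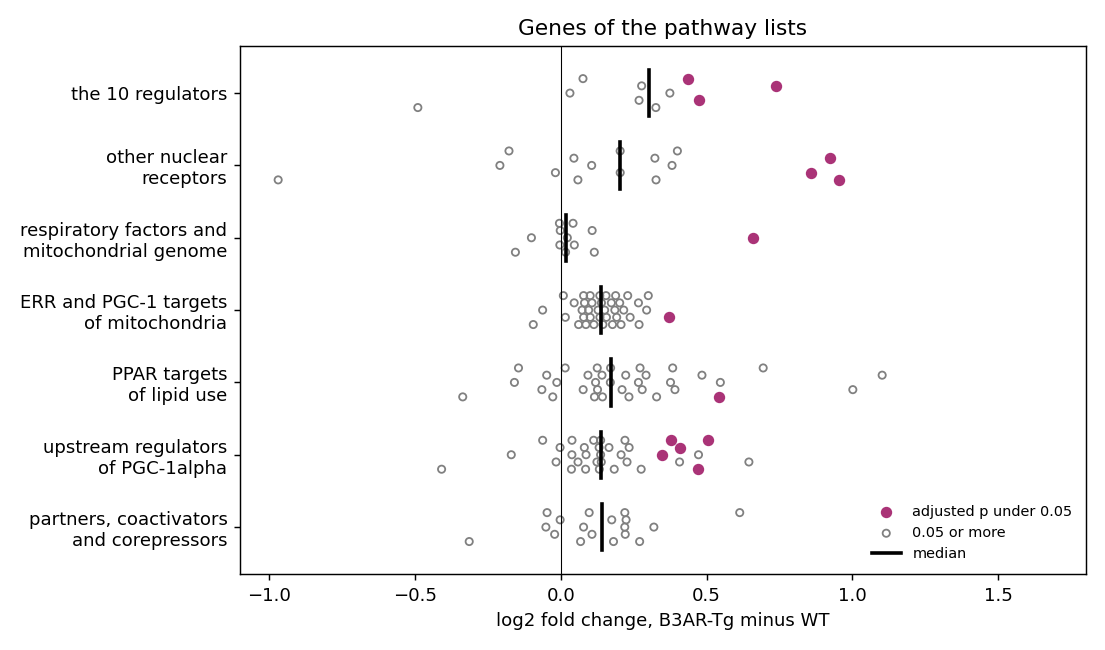
Log2 fold change, B3AR-Tg minus WT, of each tested gene in the 6 pathway lists and of the 10 regulators (open grey points, adjusted p of 0.05 or more; filled points, under 0.05; black bars, medians). Medians run from 0.019 for the mitochondrial genome list to 0.30 for the regulators. Filled points are 3 of the 10 regulators, 5 of 34 upstream genes, 3 of 16 other nuclear receptors and 0 of 18 partners. They are also 1 of 12 mitochondrial genome factors, 1 of 35 lipid targets and 1 of 39 mitochondrial targets. All are higher, beside 2.03% of all genes called higher. Differences between lists were not tested.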

How the data were processed

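Ventricular myocytes were isolated by Langendorff perfusion and plated for 1 hour, and stranded total RNA libraries were made after ribodepletion and read from both ends, per the labels' protocols. The authors deposited estimated counts per gene as whole numbers, 1 column per animal, without normalization. Salmon and GRCm39 are named in the submitters' processing notes; the annotation, strand setting and summing of transcripts to genes are not given in the sources used here. The table was matched to animals by the names in the sample titles, and all 16 columns were used.

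Genes were tested with edgeR 4.0.16 (R 4.3.3): filterByExpr (minimum count 10, minimum total count 15), TMM factors, quasi-likelihood F test on genotype, Benjamini-Hochberg over the 10945 genes tested, threshold 0.05, two-sided. The standard error is the log2 fold change divided by the root of F. Alternatives used DESeq2 1.42.0, other scalings and filters, covariates, a block and the removal of each animal. Ratios used log2(CPM + 0.1). Exact permutations used Python with numpy 2.4.6. The edgeR script was tested on simulated data. Lengths and overlaps came from GENCODE M21 by gene ID, with no coordinates printed from it, and promoters from RefSeq (GRCm38.p6), with entries for 9 of the regulators searched.

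The labels call the animals biological replicates. The 10 genes, the pathway and marker lists and the tests were chosen with earlier results of these data known. Named genes were the 10 regulators; up to 4 genes per list past the threshold with the smallest p; Cpt1b, Pdk4, Ucp3, Acadm, Tfam, Nrf1, Gabpa, Rxrb and Rxrg in any case; and the 3 genes most like Ppargc1a and the 3 most like Esrrg that overlap no other gene of the table. The mitochondrial list held 42 symbols, older and newer ones of some genes among them, which matched 40 entries of the table.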

Additional observations from a re-analysis of the deposited data

Results flagged for a closer look

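A single animal stood apart for 1 regulator. In WT replicate 8, Esrrb was at 29.2 CPM (297 counts), while the other WT animals lay between 11.3 and 17.3 CPM. On log2(CPM + 0.1), the distance to the next animal was 0.552 of the spread from lowest to highest, above the 95% critical value of Dixon's test for 8 animals. The 10 regulators in each genotype made 20 such tests, and about 1 in 20 exceeds that value by chance.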

How the results depend on the processing

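The Rxra call was lost only with the other-cell marker covariate, among 7 other settings and 16 fits without 1 animal. That covariate left 3 genes called in all, 0 of the 10 regulators and 0 list genes (edgeR; 1217, 2 and 20 at an unadjusted p under 0.05), and turned the log2 fold change of Pparg to 0.028. With the replicate block, 230 genes, 2 regulators (Ppargc1b was lost, adjusted p = 0.0679) and 4 list genes (1 upstream, 1 lipid target, 2 nuclear receptors) were called, and Ppard was at -0.028. Same-numbered animals of the 2 genotypes did not deviate together (r from -0.22 to 0.09 over 8 pairs, 0 over 0.1, and 0 WT animals matched their own number best). These values gave no sign that the numbers pair the animals, but they cannot exclude a pairing. Scaling by library totals gave 20 list genes against 11. DESeq2 called 804 genes against 537. The animal number as a covariate took Ppargc1a to an adjusted p of 0.0658, and with no low-count filter Ppargc1b was at 0.0510. Leaving out 1 animal gave 272 to 675 genes, 1 to 3 regulators and 4 to 18 list genes, and moved Ppard from -0.082 to 0.12, the Ppargc1a to Ppargc1b ratio from -0.037 (without B3AR-Tg replicate 1) to 0.28 and the Esrrg to Esrra ratio from -0.12 to 0.13 (without B3AR-Tg replicate 3). No ratio passed under any alternative. The list total was 18 without B3AR-Tg replicate 7, 4 without B3AR-Tg replicate 5, 5 without WT replicate 4, and 7 without WT replicate 1 or 8 or B3AR-Tg replicate 2 or 8. The genes called numbered 272 without WT replicate 4, 277 without B3AR-Tg replicate 5 and 345 without B3AR-Tg replicate 8. The cause of these shifts was not tested. Depth limits Ppard and Pparg most, at 16 to 78 counts per library.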
